A study of Xenopus laevis with 3 samples.

Results

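Globins, the oxygen-carrying proteins of red blood cells, were followed on microarrays of the larval *X. laevis* inner ear through every probe set (Xl-PSID) that carries a globin symbol. An Xl-PSID was taken when its symbol in the platform's annotation began with hba, hbb, hbd, hbe, hbg or hbz, leaving out *hbegf* and *hbp1*, or when the study's tables name it as a hemoglobin. This gave 16 Xl-PSIDs of the 32635 on the array. Of these, 14 have a symbol in the annotation and stand for 10 genes, and 2 are named in the tables only (*hba1* and *hbg2-a*). That pair entered through stage comparisons that used these same arrays, so their low level here is not independent of how they were chosen.

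Whole inner ears of larval stages 50 to 52 were the source of the RNA, from *X. laevis* aged 15 to 21 days after fertilization, with no treatment named in the labels. The 3 arrays of this group (*s50*) are called s50_1, s50_2 and s50_3, and each holds the RNA of a separate pool of 15, 38 and 24 animals. Mean body length in the pools was 2.99, 3.07 and 3.19 cm, and the labelled RNA amounted to 1, 1 and 0.7 µg. The *s56* and juvenile arrays of the study were not analysed here, so no stage was compared with another.

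Intensities are log2 values that the authors made with GCRMA, a method that corrects background by probe sequence and puts arrays on a common scale. Values are given per array and as means ± SD (n = 3 pools). An Xl-PSID is called detected at a mean of at least 4 and bright at a mean of at least 10. Probes differ in how strongly they bind, so the order of intensities between Xl-PSIDs is not an order of transcript abundance. The 39 control probe sets for *Bacillus subtilis* transcripts lay between 1.83 and 2.17, which marks the floor of the arrays. The medians of the arrays differed by at most 0.087, and Pearson's r over all Xl-PSIDs was between 0.956 and 0.979 for the pairs of arrays.

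Hemoglobin is a tetramer of alpha-type and beta-type globin chains with a heme group in each. In *Xenopus*, red cells of the tadpole carry larval chains, and around metamorphosis these give way to red cells with adult chains, a change tied to thyroid hormone. Alpha-type and beta-type genes lie together in a single cluster in amphibians, and as *X. laevis* is allotetraploid it has a cluster on an L and on an S chromosome. The RefSeq synonyms of *hba3.L* (Ta-globin) and *hbg2.L* (beta-T2) mark them as tadpole chains, while *hba1* and *hbg1* are the adult alpha and beta chains. Symbols such as *hbg* and *hbe* were borrowed from human gamma and epsilon globin and give no chain type in the frog. The labels name no step that removed blood from the dissected ears. In bulk RNA a smaller number of red cells cannot be told apart from less globin RNA per cell.

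Of the 9 bright globin Xl-PSIDs 8 hardly differed between pools, while 4 of the 7 that were not bright spread over several log2 units. Over the whole array, 48.8% of Xl-PSIDs with a mean from 4 to 8 had a range of at least 1.5 between arrays. That share was 0.56% at a mean of at least 13, so the contrast goes with level and is not read as a trait of globins. Of the 16, 12 were detected, against 64.8% of all Xl-PSIDs, and 9 were bright, against 28.9%. No member had a mean between 7.49 and 11.30. The number of members at 4 or above was 11, 13 and 12 on s50_1, s50_2 and s50_3, against 64.8%, 64.2% and 64.4% of all Xl-PSIDs.

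**Figure D1:**
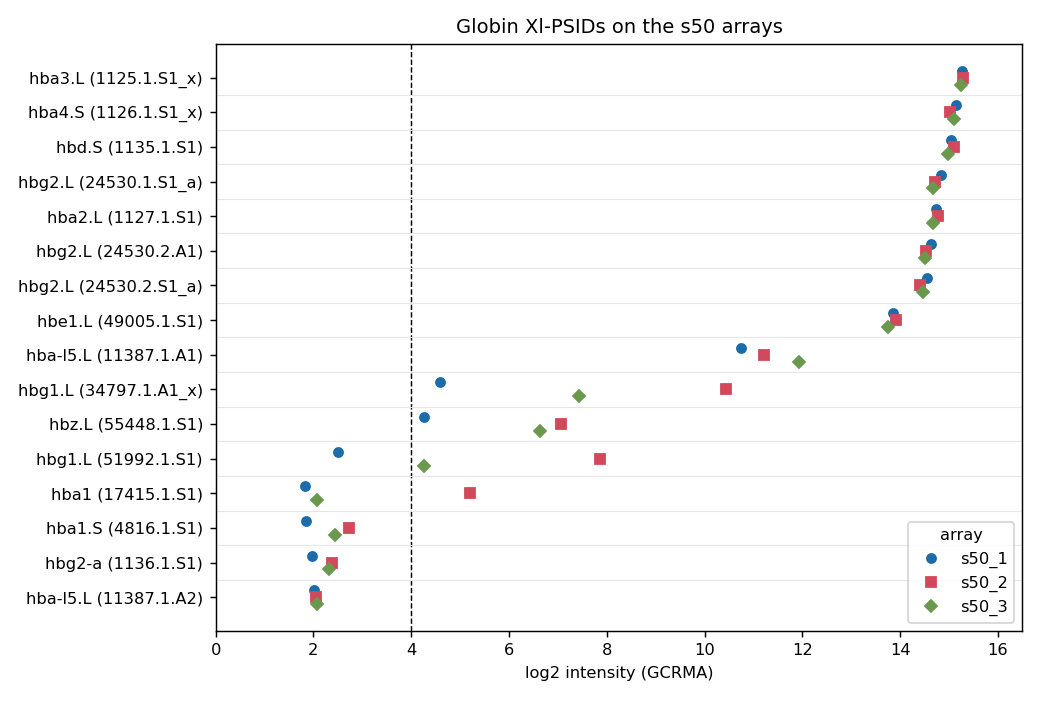
Log2 intensity (x axis) of each of the 16 globin Xl-PSIDs (y axis, symbol and ID) on the arrays s50_1, s50_2 and s50_3, with a dashed line at 4, the threshold for detection. The 8 Xl-PSIDs at the top lie between 13.76 and 15.29 with their arrays close together, and *hbg1.L*, *hbz.L* and an *hba1* Xl-PSID spread over several log2 units, highest on s50_2.

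The bright set held alpha-type and beta-type chains. Of the alpha chains, the larval alpha-globin *hba3.L* (Xl2.1125.1.S1_x_at) had 15.26, 15.29 and 15.25 on s50_1, s50_2 and s50_3 (15.27 ± 0.02), and only 56 of all Xl-PSIDs had a higher mean. The alpha chain *hba4.S* (Xl2.1126.1.S1_x_at) had 15.14, 15.01 and 15.10 in the same order of arrays (15.08 ± 0.06). For *hba2.L* (Xl2.1127.1.S1_at), another alpha chain, the values were 14.73, 14.77 and 14.68 (14.73 ± 0.05). No array was set apart by these alpha chains, since the highest value was on s50_2 for *hba3.L* and *hba2.L* and on s50_1 for *hba4.S*. The Xl-PSIDs of *hba3.L* and *hba4.S* carry the suffix x, which marks probes that can also match other transcripts, so the *hba3* and *hba4* signals may be shared.

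Beta-type chains also differed by less than 0.2 between arrays. The beta chain *hbd.S* (Xl2.1135.1.S1_at) had 15.05, 15.10 and 14.98 on s50_1, s50_2 and s50_3 (15.04 ± 0.06). The tadpole beta chain *hbg2.L* is measured by 3 Xl-PSIDs. Of these, Xl2.24530.1.S1_a_at had 14.83, 14.71 and 14.68, Xl2.24530.2.A1_at had 14.63, 14.53 and 14.51, and Xl2.24530.2.S1_a_at had 14.55, 14.40 and 14.47. Their means were 14.74 ± 0.08, 14.55 ± 0.06 and 14.47 ± 0.08, and each was highest on s50_1, by at most 0.16. The beta-type *hbe1.L* (Xl2.49005.1.S1_at) had 13.85, 13.91 and 13.76 (13.84 ± 0.07).

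These 8 Xl-PSIDs lay between percentiles 98.4 and 99.8 of all Xl-PSIDs by mean. The largest difference between arrays for any of them was 0.16 and the smallest was 0.04. Their median SD was 0.065, against 0.16 for the 1247 Xl-PSIDs of the whole array with a mean of at least 13. Spread falls with level on these arrays, and intensities near the upper end of the scale may compress differences, which was not tested.

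The ninth bright member differed from the rest. The alpha-type gene *hba-l5.L*, which the study's tables name *hbz*, had 10.75, 11.22 and 11.92 in that order with Xl2.11387.1.A1_at (11.30 ± 0.59). Its range of 1.17 was the largest of the bright members. The median SD of the 6371 Xl-PSIDs with a mean from 10 to 12 was 0.41. A second Xl-PSID that the annotation assigns to the same gene, Xl2.11387.1.A2_at, had 2.01, 2.06 and 2.07 (2.05 ± 0.03), at the level of the control probe sets. The Xl-PSIDs of *hba-l5.L* therefore disagree on whether the gene is detected, and the level of the gene is uncertain.

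The adult beta chain *hbg1.L* varied most. With Xl2.51992.1.S1_at it had 2.50 on s50_1, 7.87 on s50_2 and 4.26 on s50_3 (4.88 ± 2.74). With Xl2.34797.1.A1_x_at it had 4.60, 10.43 and 7.44 (7.49 ± 2.91). Both Xl-PSIDs were highest on s50_2 and lowest on s50_1, by 5.37 and 5.83 on the log2 scale. Between s50_3 and s50_1 the differences were 1.76 and 2.84. Without s50_2 the mean of Xl2.51992.1.S1_at was 3.38, below the threshold for detection, and that of Xl2.34797.1.A1_x_at was 6.02. Without s50_1 the means were 6.06 and 8.93 in that order.

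The adult alpha chain *hba1* was at or near the floor on s50_1 and s50_3. The annotated Xl-PSID for *hba1.S* (Xl2.4816.1.S1_at) had 1.84, 2.72 and 2.45 on s50_1, s50_2 and s50_3 (2.34 ± 0.45). The *hba1* Xl-PSID named in the tables (Xl2.17415.1.S1_at) had 1.83, 5.20 and 2.08 (3.04 ± 1.88). On s50_2 the latter passed 4, and it was at the level of the control probe sets on the other arrays. The Xl-PSID that the tables name *hbg2-a* (Xl2.1136.1.S1_at) had 1.97, 2.37 and 2.31 (2.22 ± 0.22), below 4 on every array. In RefSeq, *hbg2-a* is a synonym of both *hbg2.L* and *hbg2.S*, so the name does not settle which gene this Xl-PSID measures.

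A further globin gene, *hbz.L* (Xl2.55448.1.S1_at), had 4.26 on s50_1, 7.07 on s50_2 and 6.64 on s50_3 (5.99 ± 1.51). Zeta globin is the embryonic alpha-type chain of mammals, and the name is not taken here to give the chain type of the frog gene. The level of *hbz.L* on s50_2 and s50_3 differed by 0.43, while s50_1 was lower than both by more than 2.

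A range of at least 1.5 was found for 4 of the 16 members over the arrays, against 19.7% of all Xl-PSIDs. These were both Xl-PSIDs of *hbg1.L*, *hbz.L* and the *hba1* Xl-PSID of the tables, and each was lowest on s50_1 and highest on s50_2. The same order with a range of at least 1.5 was seen for 401 Xl-PSIDs of the whole array (1.23%). At means from 4 to 8, where 3 of these members lie, 48.8% of the 5874 Xl-PSIDs had such a range. By the difference alone, these 4 members were at least 1.5 higher on s50_2 than on s50_1, against 2.76% of all Xl-PSIDs. All 7 members that were not bright had their lowest value on s50_1, and 6 of the 7 had their highest on s50_2. The exception was Xl2.11387.1.A2_at, where the arrays differed by 0.063. The share of all Xl-PSIDs highest on s50_2 was not computed, so the count of 6 is no result about globins. Among all detected Xl-PSIDs, 42.3% were lowest on s50_1. That share is no background for *hba1*, *hba1.S*, *hbg2-a* and Xl2.11387.1.A2_at, which were not detected. The highest control value was also lowest on s50_1, at 2.08 against 2.14 on s50_2 and 2.17 on s50_3. For members at the floor, a lowest value on s50_1 is therefore no result about globins. Small differences at the floor carry little information, and probes of similar globins may read the same transcript, so the 4 members are not 4 separate observations.

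**Figure D2:**
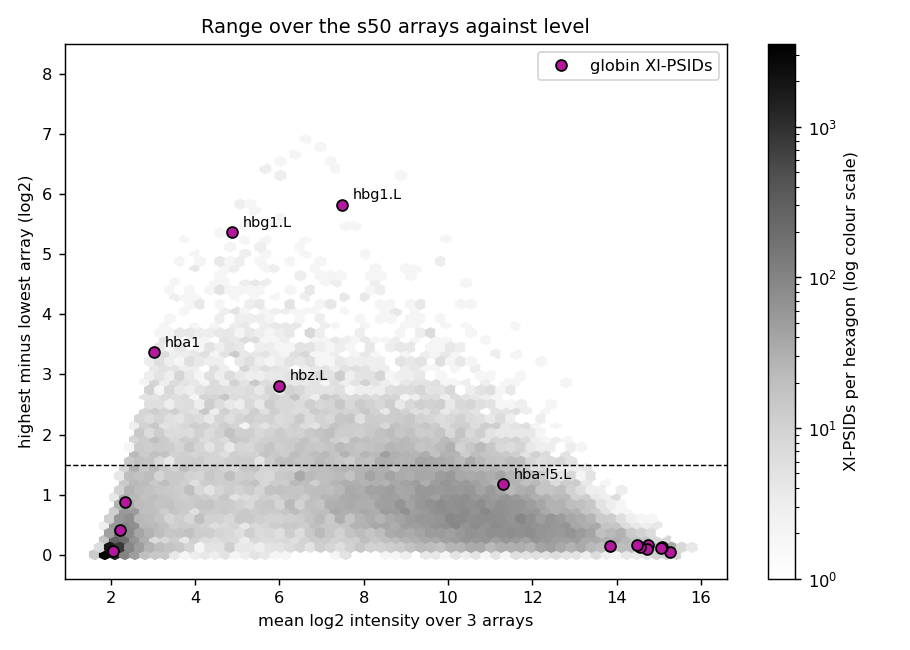
Difference between the highest and the lowest *s50* array (y axis, log2) against the mean log2 intensity (x axis), with all 32635 Xl-PSIDs as grey hexagons on a log colour scale and the 16 globin Xl-PSIDs as points. The dashed line marks a range of 1.5. Both *hbg1.L* points stand above 5, and the 8 brightest globins lie at a range of at most 0.16.

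Among globin genes with an Xl-PSID, bright ones preceded the faint ones in gene order. On the S chromosome *hba1.S* was the only faint one. In the RefSeq order of the L chromosome, the 8 named globin genes lie in a stretch of 21 annotated genes. They come in the order *hbe1.L*, *hbg2.L*, *hba-l5.L*, *hba2.L*, *hba3.L*, *hbz.L*, *hba1.L* and *hbg1.L*. The first 5 each have a bright Xl-PSID, while *hbz.L* and *hbg1.L* at the end of the stretch have none, and no Xl-PSID is annotated to *hba1.L*. The second Xl-PSID of *hba-l5.L* was at the floor at 2.05, so the place of that gene among the bright ones is uncertain. On the S chromosome the order is *hbd.S*, *hba4.S*, *hba1.S* and *hbg2.S*. The first 2 were bright at 15.04 and 15.08, *hba1.S* was not detected at 2.34, and no Xl-PSID is annotated to *hbg2.S*. The order describes 10 genes with an Xl-PSID, and no test was made of it. No Xl-PSID is annotated to 10 of the 21 genes of the L stretch. From the first to the last globin on the S chromosome, 14 of 17 annotated genes have none. Coordinates are not given because no genome build is named for the arrays.

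**Figure D3:**
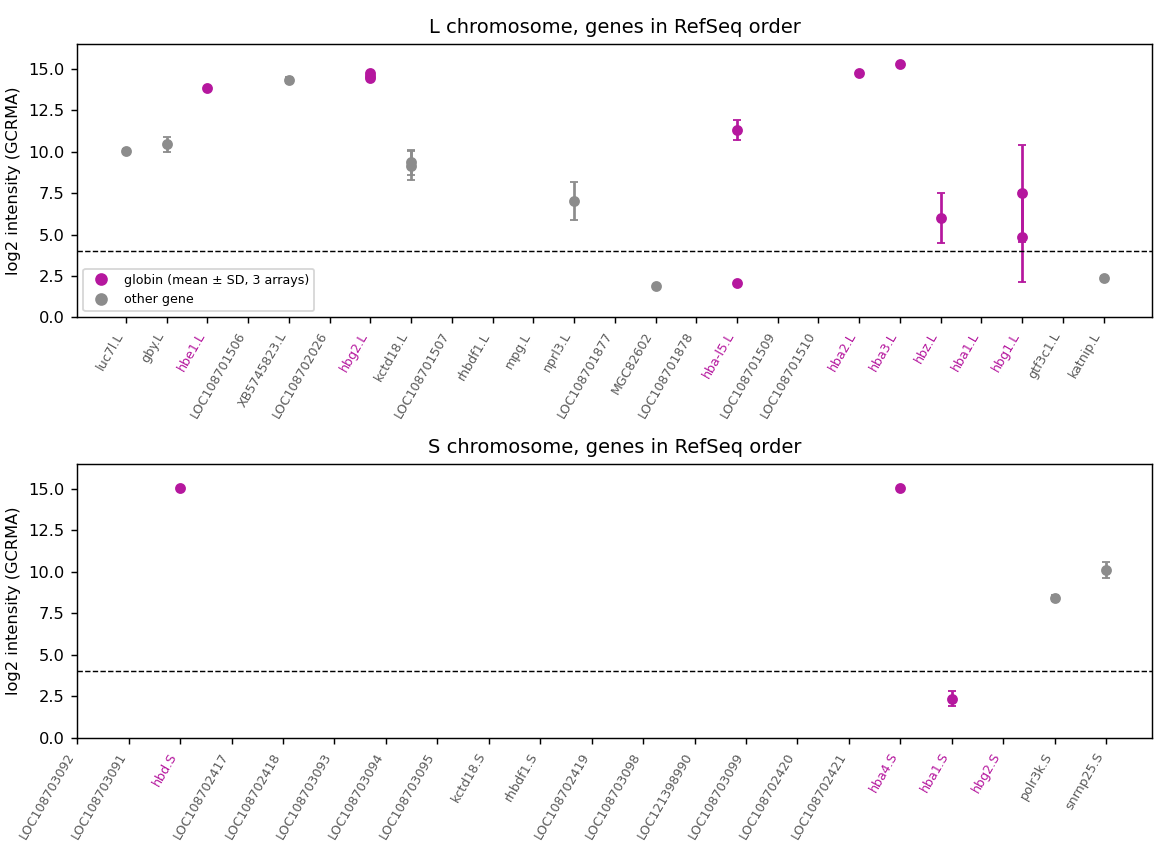
Mean log2 intensity (y axis, bars ± SD over 3 arrays) of the Xl-PSIDs of genes in RefSeq order (x axis, not to scale) along the globin stretch of the L chromosome (top) and the S chromosome (bottom), with globins in magenta, other genes in grey and a dashed line at 4. Genes with no point have no annotated Xl-PSID. Bright globins stand to the left of the faint ones, apart from the low second Xl-PSID of *hba-l5.L*. On the S chromosome *hba1.S* is the only faint globin shown.

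Other genes of the stretch ranged from bright to the floor. *XB5745823.L*, which lies between *hbe1.L* and *hbg2.L* and has no descriptive name, had 14.51, 14.20 and 14.21 on s50_1, s50_2 and s50_3 (14.31 ± 0.18), at the level of the bright globins. The gene *nprl3.L*, which in mammals holds the main enhancer of the alpha-globin genes in its introns, had 5.99, 6.82 and 8.25 (7.02 ± 1.14). It was lowest on s50_1, as were 42.3% of all detected Xl-PSIDs, and highest on s50_3. The gene *kctd18.L* of the same stretch had that order too, with 8.63, 9.31 and 10.11 and with 8.50, 8.82 and 10.17. *MGC82602*, between *nprl3.L* and *hba-l5.L*, was at the floor with 1.90 ± 0.02. Next to *hbe1.L* lies *gby.L*, which codes for globin Y, with 10.44 ± 0.43.

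Globins outside the hemoglobin family were measured for 3 genes, *gby.L* among them. Cytoglobin, *cygb.S*, which is found in many cell types, had 11.26, 11.44 and 11.66 (11.46 ± 0.20), and neuroglobin, *ngb.L*, a globin of neurons, had 5.55, 5.28 and 4.21 (5.02 ± 0.71). The range of none of these genes reached 1.5. No Xl-PSID matched the symbols *mb*, for myoglobin, or *gbx*.

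Heme synthesis genes had a median of 10.10 over the 7 measured, against 9.64 over all 9271 genes with a symbol. Each gene was taken at its brightest Xl-PSID here and in the lists that follow, and 80.5% of all genes were detected by that rule. Of the 7, 6 were detected. The erythroid form of the first enzyme of the pathway, *alas2.S*, had 10.19, 10.79 and 9.75 on s50_1, s50_2 and s50_3 (10.24 ± 0.52). The form used in all tissues, *alas1.L*, had 12.12 ± 0.43, and *urod.L*, a later enzyme, had 11.23 ± 0.56. The last enzyme, ferrochelatase *fech.L*, missed the threshold at 3.82 ± 1.01, with 2.65, 4.43 and 4.38. The median difference of the detected genes from their own means was -0.46, 0.14 and 0.34 on the arrays in that order, and 5 of the 6 were lowest on s50_1. The exception was the erythroid *alas2.S*, lowest on s50_3. A further Xl-PSID, of *alas2.L*, was lowest on s50_3 too, with 8.95, 8.91 and 7.29. Over all detected genes the median difference was -0.10, 0.06 and 0.07, and 48.3% were lowest on s50_1. No range among the 6 reached 1.5.

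Genes of the red cell membrane and metabolism differed among themselves in the order of the arrays. Of 9 measured genes 8 were detected, with 5 of these at a range of at least 1.5, against 22% of all detected genes. The anion exchanger *slc4a1.L*, the main membrane protein of red cells, had 11.28, 10.91 and 8.13 on s50_1, s50_2 and s50_3, and *epb41.L*, which ties the membrane to the cytoskeleton, had 11.46, 11.23 and 8.87. Both were lowest on s50_3. A further Xl-PSID of *epb41.L*, Xl2.691.1.S1_at, was at the floor at 2.13 ± 0.13, and Xl2.12931.2.S1_at was at 4.41 ± 1.65. The level of *epb41.L* is therefore uncertain. The bright globins were lower on s50_3 than on the other arrays for 6 of 9 Xl-PSIDs, by much smaller amounts. For *hba3.L* the difference of s50_3 from s50_1 was -0.0098, and some of the 6 are Xl-PSIDs of the same gene, *hbg2.L*. The share of all Xl-PSIDs lowest on s50_3 was not computed, so this count is no result about globins. Pyruvate kinase *pklr.L* was highest on s50_3 (10.85, 10.51 and 12.23), the water channel *aqp1.L* had 7.40, 2.87 and 1.91, and *gypc.L*, a glycophorin, had 4.79, 7.36 and 6.92. The latter had the order of the faint globins, lowest on s50_1 and highest on s50_2. So did *dmtn.S*, a gene of the membrane skeleton named after its values were seen (9.08, 9.70 and 9.18). These were the only 2 of the 8 detected genes that were highest on s50_2. The share of all detected genes highest on s50_2 was not computed, so this count is a description only. Lowest on s50_1 were 3 of the 8, against 48.3% of all detected genes. The median difference of the 8 detected genes was -0.24, 0.17 and 0.17. The gene *ank1.S*, for an ankyrin, had 10.35 ± 0.52, and the Rh-associated *rhag.L* was not detected at 3.54 ± 0.56. A further Xl-PSID of *ank1.S*, Xl2.56722.1.S1_at, was at the floor at 2.13 ± 0.04, so the level of *ank1.S* is uncertain. The symbol *epb42* had no match.

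Of 11 measured regulators of red cell genes 8 were detected, a share near that of all genes (80.5%). The erythroid factor *gata1.L* had 3.67 on s50_1, 5.37 on s50_2 and 6.08 on s50_3 (5.04 ± 1.24). Its partners *lmo2.S* and *tal1.S* had 8.53, 10.41 and 9.84 and 8.67, 9.91 and 8.29. Both were highest on s50_2, with ranges of 1.88 and 1.61. They were the only 2 of the 8 detected genes that were, a count with no computed share of all detected genes beside it. A further Xl-PSID of *tal1.S*, Xl2.278.1.S1_at, was at the floor at 1.92 ± 0.01, so the level of that gene is uncertain. The cofactor *ldb1.L* had 13.52, 12.71 and 13.67 (13.30 ± 0.52), lowest on s50_2. A further Xl-PSID, of *ldb1.S*, had 11.35, 10.96 and 8.46, lowest on s50_3. Highest on s50_1 was *gata2.L*, which acts in blood progenitors, with 10.31, 9.57 and 9.72 (9.87 ± 0.39). So was *bcl11a.L*, named after its values were seen, with 10.43, 8.93 and 8.94. The factor gene *gfi1b.L* (3.25 ± 0.28), the erythropoietin receptor gene *epor.L* (3.04 ± 0.01) and *myb.S* (1.94 ± 0.02) were not detected, and *klf1* had no match. Over the list the median difference was 0.16 on s50_1 and -0.13 on s50_2, opposite in sign to that of the heme genes.

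Iron and heme turnover genes were detected in all 5 cases measured, against 80.5% of all genes. The iron exporter *slc40a1.S* had 12.72 ± 0.44 and transferrin, *tf.L*, 12.71 ± 0.12. The biliverdin reductase gene *blvrb.L* had 11.31 ± 0.22 and the heme oxygenase genes *hmox1.L* and *hmox2.S* had 11.16 ± 0.40 and 8.88 ± 0.91. On s50_1, s50_2 and s50_3 *hmox2.S* had 8.97, 7.93 and 9.75, a range of 1.82. A further Xl-PSID, of *hmox1.S*, had 5.72, 6.77 and 3.52. None of the 5 was lowest on s50_1, against 48.3% of all detected genes, and with so few genes this count is a description only.

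Markers of other cells in the tissue differed among themselves in the order of the arrays. Of 12 measured leukocyte and thrombocyte genes 8 were detected, against 80.5% of all genes, and their median difference was -0.43, 0.32 and 0.24 on s50_1, s50_2 and s50_3. Of the 8, 4 were lowest on s50_1, against 48.3% of all detected genes. The brightest, *cd74.S*, had 10.98, 11.42 and 10.95, and *lyz.L* had 8.60, 8.55 and 8.78. The granule enzyme *mpo.L* had 3.77, 7.10 and 7.86, the leukocyte actin-binding gene *coro1a.S* had 4.57, 6.21 and 7.27, and *fli1.S*, of blood and endothelial cells, had 11.42, 11.61 and 8.16. A further Xl-PSID of *mpo.L*, Xl2.51447.2.S1_at, was at the floor at 1.88 ± 0.02, so the level of that gene is uncertain. The pan-leukocyte gene *ptprc.L* was at the floor at 2.03 ± 0.04. The log2 of the summed linear intensities of this list was 12.38, 12.72 and 11.72. The 3 endothelial genes measured were led by *egfl7.L* (12.54 ± 0.28), and their median difference was 0.31, 0.12 and -0.23 on the arrays. They differed in order, as *pecam1.L* had 8.15, 8.96 and 9.40 and *tek.S* had 8.74, 8.94 and 7.20. A further Xl-PSID, of *egfl7.S*, had 7.56, 8.70 and 9.21. For *egfl7.L*, Xl2.18246.1.A1_at had 7.08, 7.91 and 8.96. Another, Xl2.50831.1.S1_at, was at the floor at 1.92 ± 0.02, so the level of *egfl7.L* is uncertain. Of 17 hair cell and inner ear symbols, 2 matched, with *tecta.2.S*, of the tectorial membrane, at 8.38 ± 0.66 and *slc26a4.3.S*, an anion transporter of the endolymph, with 7.82, 8.38 and 4.68 on the arrays. Hair cell genes such as *myo7a*, *otof* and *pou4f3* had no match, so the annotation does not allow a check of hair cells. The part of any of these cells in the globin values was not tested.

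Thyroid hormone response genes were read because the globin change is tied to that hormone. Of 8 measured genes 4 were detected, against 80.5% of all genes. The receptor gene *thra.L* had 9.27, 7.28 and 8.92 on s50_1, s50_2 and s50_3. The deiodinase genes *dio1.L* and *dio2.L*, whose products convert the hormone, had 8.01, 9.34 and 8.37 and 9.93, 6.82 and 7.28, and the protease *fap.L* had 5.60, 7.33 and 7.80. The response genes *klf9.L* (2.11 ± 0.10), *thibz.S* (1.98 ± 0.03) and *mmp11.L* (1.98 ± 0.02) lay at the floor on every array. The gene *dio3.L*, whose product inactivates the hormone, was at 3.70 ± 0.39. An Xl-PSID that the study's tables name *klf9-b* was not among those read. Whether the hormone had a part in the globin values was not tested. The symbol *thrb* had no match.

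**Figure D4:**
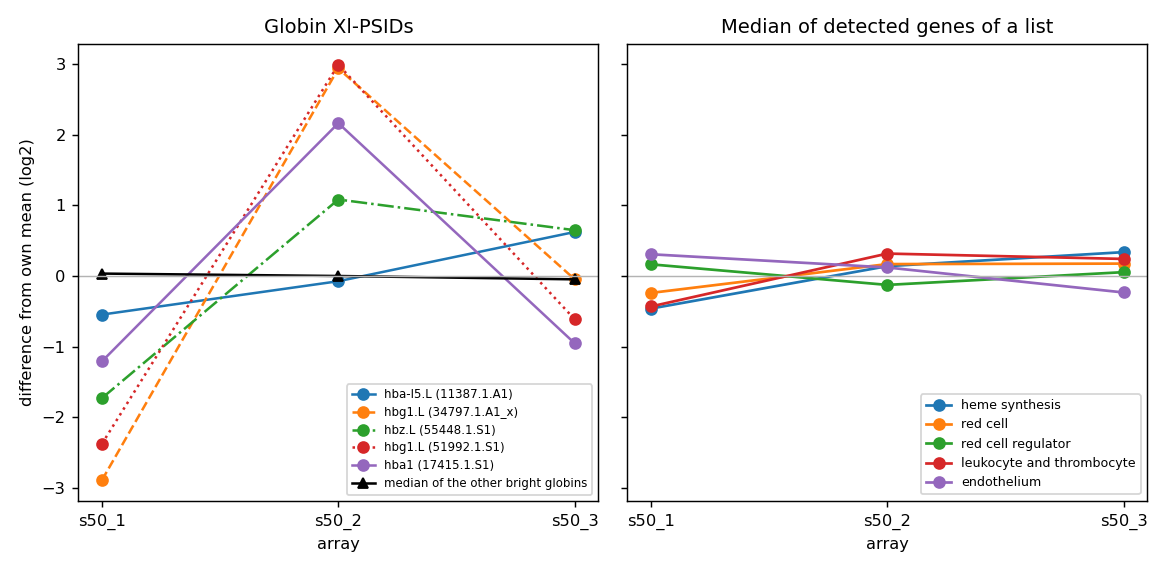
Difference from the item's own mean (y axis, log2) on each array (x axis) for the 5 globin Xl-PSIDs with a range over 1 and the median of the other bright globins (left), and for the median of the detected genes of 5 lists (right: heme synthesis, red cell, red cell regulator, leukocyte and thrombocyte, and endothelium). Lines join values of the same item and imply no order of the arrays. The 4 variable globins, single Xl-PSIDs chosen for their range, reach from -2.89 to 2.99. The medians of these 5 lists stay between -0.46 and 0.34. A median over genes hides the spread of single genes, so the panels do not compare the spread of globins with that of list genes. For example, *aqp1.L* of the red cell list had a range of 5.50.

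The patterns most like that of the 4 variable globins were sought among 11704 other Xl-PSIDs with a single symbol and at least 4 on some array. Likeness was the Euclidean distance between profiles centred on their own means, over 3 arrays, which is too few to read more than a description from it. The mean globin profile was -2.05, 2.29 and -0.24 in the order of the arrays. The 5 nearest were Xl-PSIDs of *crygbl.4.S* (distance 0.30), *cavin4.S* (0.32), *atp6v1b1.L* (0.34), *ag1.S* (0.37) and *nfe2.S* (0.40). The *crygbl.4.S* Xl-PSID, of a crystallin-like gene, had 2.80, 7.57 and 4.78. That of *nfe2.S*, a factor that acts on globin genes in mammals, had 3.70, 7.61 and 4.98. The annotation gives *nfe2.S* 7 Xl-PSIDs with unrelated IDs that did not move together, and it may be wrong for some of them, this one included. The brightest of them, Xl2.11598.1.A1_at, had 12.02, 11.44 and 10.73, with its highest value on s50_1.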

How the data were processed

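Inner ear RNA of 3 *s50* pools was hybridized to Affymetrix X. laevis Genome 2.0 arrays. The authors deposited log2 intensities made with GCRMA in JMP Genomics 5.0, and whether other stages entered that step is not stated in the labels or methods. These values were used as deposited. Symbols came from the platform's annotation (15505 Xl-PSIDs with 1 symbol, 279 with several, 16851 with none). IDs in the tables begin with Xl in place of Xl2, so the 2 members named only there were matched without this prefix. RefSeq (Xenopus_laevis_v10.1) was used for synonyms and gene order only.

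With a single group of 3 arrays no test was made, and the number of arrays limits the precision. Members and gene lists were chosen with earlier results of these data known. All members are named. Of each list, the 3 brightest detected genes, up to 4 detected genes with the largest range of at least 1.5, and defining genes not detected were eligible. A gene was represented by its brightest Xl-PSID, and tandem copies with a number after the symbol counted separately. Genes beside the globins on the chromosome, *XB5745823.L* among them, were chosen after their values were seen. Summaries were computed in Python 3.11.15 with pandas 2.3.3. The code for the range, the difference of s50_2 from s50_1 and quantile normalization was run on simulated data. These had the same spread at all levels, unlike the arrays, and the other summaries were not checked in this way. Alternatives were other thresholds, the median, quantile normalization, linear means, Xl-PSIDs without the suffix a, s or x, the mean over the Xl-PSIDs of a gene, and leaving out each replicate.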

Additional observations from a re-analysis of the deposited data

How the results depend on the processing

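Leaving out Xl-PSIDs that can match several transcripts (suffix a, s or x) lowered the number of detected globin Xl-PSIDs from 12 to 7 and of bright ones from 9 to 5, since 5 of the 16 members carry such a suffix. Under every other alternative run, the number detected stayed between 11 and 13 and the number of bright ones was 8 or 9. With each replicate left out in turn, 11 to 12 Xl-PSIDs were detected, 9 were bright, 3 to 4 had a range of at least 1.5 and the median SD of the detected ones was 0.066 to 0.086. The lists of heme synthesis, red cell and red cell regulator genes had 6 to 7, 7 to 8 and 8 detected genes in these runs. Leaving out s50_2 took *hbg1.L* (Xl2.51992.1.S1_at) below 4, the single level of 48 that crossed the threshold. Levels of the variable members moved by over 1.5 times, though by less than their large SD. For the median and for leaving out a replicate that bound holds for any 3 values, so it is no sign of stability. With linear means *hbg1.L* rose from 4.88 to 6.43 (Xl2.51992.1.S1_at) and from 7.49 to 9.04 (Xl2.34797.1.A1_x_at), and the *hba1* Xl-PSID of the tables from 3.04 to 3.89. With the median these were 4.26, 7.44 and 2.08, and *hbz.L* was 6.64 in place of 5.99. Without s50_1 the *hba1* Xl-PSID had 3.64 and *hbz.L* 6.85, and without s50_2 the *hba1* Xl-PSID had 1.95. Quantile normalization moved no level by that much. No paired analysis was possible because there is a single group. The detection of faint globins is limited by the floor of the arrays.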
